A study of Solanum lycopersicum with 9 samples.

Results

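The NPR1-like and carboxyl methyltransferase families were followed in tomato leaves exposed to p-hydroxybenzoic acid (PHBA), through 3 assembled sequences with the NPR1-like C-terminal domain (Pfam family PF12313) and 4 sequences with the SAM-dependent carboxyl methyltransferase domain (PF03492). They were chosen by these domains in the deposited annotation and by a level that reached 0.5 FPKM in 3 or more libraries of 9 (FPKM are read fragments corrected for sequence length and library size). Of 9 sequences with either domain, 7 passed that level, out of 44203 sequences that passed it in the series and 82125 in all. The leaves were of the cultivar Diana, from plants about a month old, treated for 2 days with 0 mM (untreated control), 15 mM or 30 mM PHBA, with 3 libraries at each dose. RNA of the same treatment was pooled in equal parts per the labels, and separate plants behind the 3 libraries of a dose are not stated, so the p-values reflect spread between libraries that may be no more than technical.

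PHBA is the para isomer of salicylic acid, the hormone that plants use against pathogens that feed on living tissue. In Arabidopsis, NPR1 binds salicylate and acts with TGA-type bZIP factors as a coactivator of pathogenesis-related genes, while its relatives NPR3 and NPR4 act as repressors. These proteins join a BTB domain, which contacts other proteins including ubiquitin ligase scaffolds, to ankyrin repeats and a C-terminal regulatory region. The carboxyl methyltransferases, called the SABATH family, move a methyl group from S-adenosylmethionine onto the acid group of small molecules such as salicylic, benzoic, jasmonic or indole-3-acetic acid. Methyl salicylate made this way is volatile and serves as a transport and signalling form of salicylate. The domain alone does not say which acid an enzyme uses, nor which NPR relative a tomato sequence is, and the files name no tomato gene, so the sequences are given by their identifiers and then by the DN number within them.

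All 3 NPR1-like sequences rose at 30 mM PHBA against the control, between 1.69-fold and 2.65-fold in mean FPKM. None of the 4 methyltransferase sequences was called in that comparison. The most abundant NPR1-like sequence was TCK_2_TRINITY_DN1887_c0_g1 (DN1887), annotated with the NPR1-like C terminal, the NPR central domain and a BTB domain. Its FPKM was 11.68, 11.92 and 11.63 in the control libraries, 14.35, 11.56 and 14.63 at 15 mM and 20.45, 20.1 and 18.91 at 30 mM (replicates 1 to 3). Every 30 mM library lay above every other library, and 15 mM replicate 2 lay below the 3 controls. DN1887 averaged 19.8 ± 0.807 FPKM at 30 mM and 11.7 ± 0.155 FPKM in the control (mean ± SD, n = 3 each; log2 fold change 0.71, SE 0.12, limma adjusted p = 0.00575). Its mean over the 9 libraries, 15 FPKM, was higher than that of 93.2% of the annotated sequences that passed the filter.

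The second NPR1-like sequence, TCK_1_TRINITY_DN2979_c0_g1 (DN2979), carries the C terminal with a BTB domain and ankyrin repeats. It stood at 3.31, 3.67 and 3.58 FPKM in the controls, 6.02, 4.41 and 6.94 FPKM at 15 mM and 10.18, 8.53 and 7.88 FPKM at 30 mM. The 3 doses did not overlap. The share of all sequences ordered this way over all 3 doses was not counted. By pairs, the 15 mM libraries lay above the controls in 14.7% of all sequences and 23.8% of the annotated ones. The 30 mM libraries lay above the 15 mM ones in 12.6% and 21.3%. At 30 mM DN2979 averaged 8.86 ± 1.19 FPKM, against 3.52 ± 0.187 FPKM in the control, a 2.52-fold difference (mean ± SD, n = 3 each; log2 fold change 1.12, SE 0.16, limma adjusted p = 0.00329).

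The third, T15_3_TRINITY_DN8605_c0_g1 (DN8605), has the same 3 annotated Pfam domains as DN1887. It had 2.0, 2.04 and 2.82 FPKM in the controls, 3.89, 3.17 and 3.6 FPKM at 15 mM and 7.18, 5.11 and 5.87 FPKM at 30 mM. Here too no library of one dose reached those of the next. The 30 mM mean was 6.05 ± 1.05 FPKM and the control mean 2.29 ± 0.462 FPKM, a 2.65-fold difference and the largest ratio of the 3 (mean ± SD, n = 3 each; log2 fold change 1.10, SE 0.16, limma adjusted p = 0.00315).

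**Figure D1:**
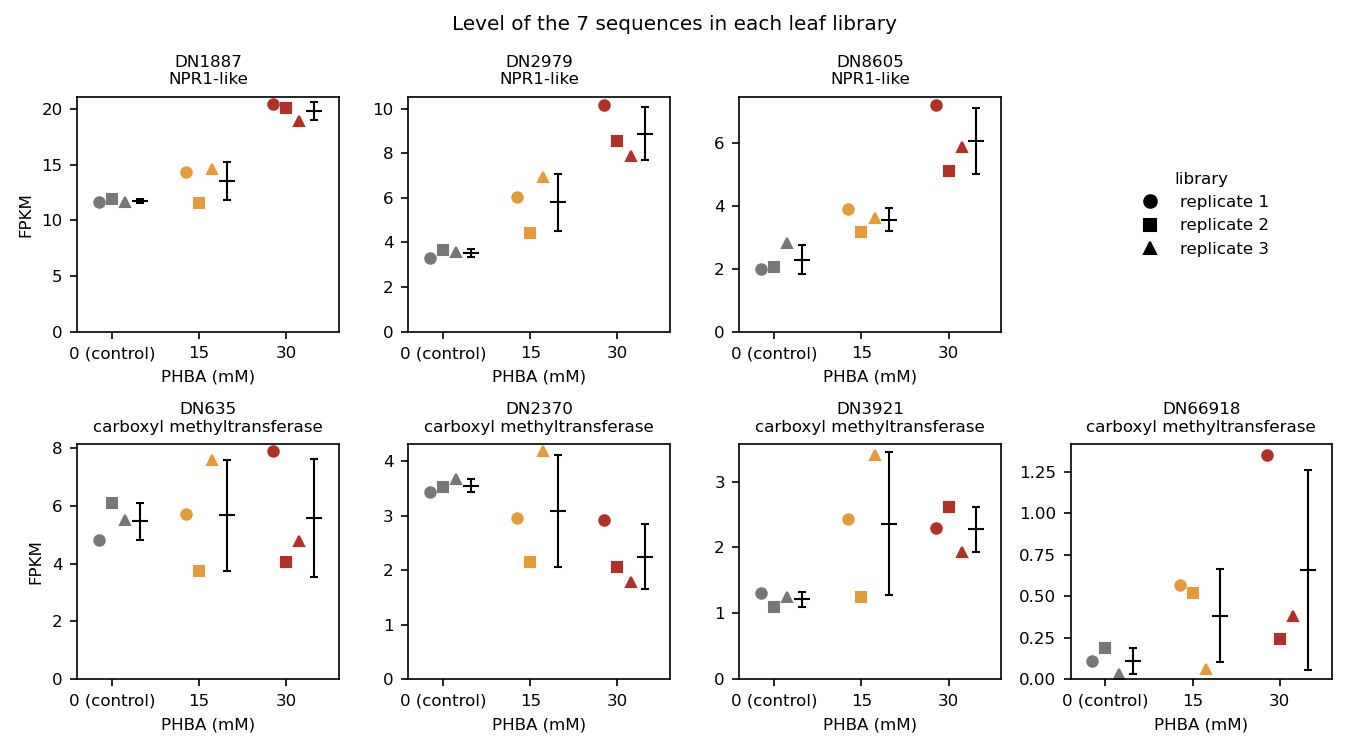
FPKM (vertical axis, linear, from 0) of each of the 7 sequences at 0, 15 and 30 mM PHBA, with one symbol per library and the mean with its SD (n = 3) in black. The 3 NPR1-like sequences are highest in the 30 mM libraries, whereas the methyltransferase DN635 averages 5.47 FPKM in the control, 5.69 FPKM at 15 mM and 5.6 FPKM at 30 mM.

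As background, 11.8% of all 44203 sequences tested were called at 30 mM against the control (limma, Benjamini-Hochberg adjusted p under 0.05), 10% as higher and 1.75% as lower. Among the 13634 annotated sequences tested, to which every member belongs, 24% were called, 21.1% as higher. The NPR1-like count of 3 of 3 higher stands beside those shares. The share was larger among abundant sequences: of 4548 with a mean of at least 5 FPKM, tested alone, 2380 were called, 2025 of them as higher. DN1887 and DN2979 were the NPR1-like sequences in that set, and both were called higher there. The 30 mM libraries lay entirely above the controls in all 3 NPR1-like sequences, in 25.9% of all sequences tested and in 47.3% of the annotated ones. Lower calls made up 2.95% of the annotated sequences. The median log2 fold change was 1.10 for the NPR1-like sequences, 0.18 for all sequences tested and 0.30 for the annotated ones.

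The size of the rise differed between scalings of the values. After median-of-ratios rescaling the median of all sequences was 0 on the log2 scale to 2 decimals, and the log2 fold changes at 30 mM became 0.34 for DN1887 (limma adjusted p = 0.0451), 0.79 for DN2979 (adjusted p = 0.00119) and 0.80 for DN8605 (adjusted p = 0.00553). After quantile normalization they were 0.20 for DN1887, which was then not called (limma adjusted p = 0.198), 0.68 for DN2979 (adjusted p = 0.00154) and 0.73 for DN8605 (adjusted p = 0.0075). All 3 calls held in each of the 9 fits that left out a library, with log2 fold changes of 0.69 to 0.74 for DN1887, 1.03 to 1.19 for DN2979 and 0.99 to 1.21 for DN8605.

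**Figure D2:**
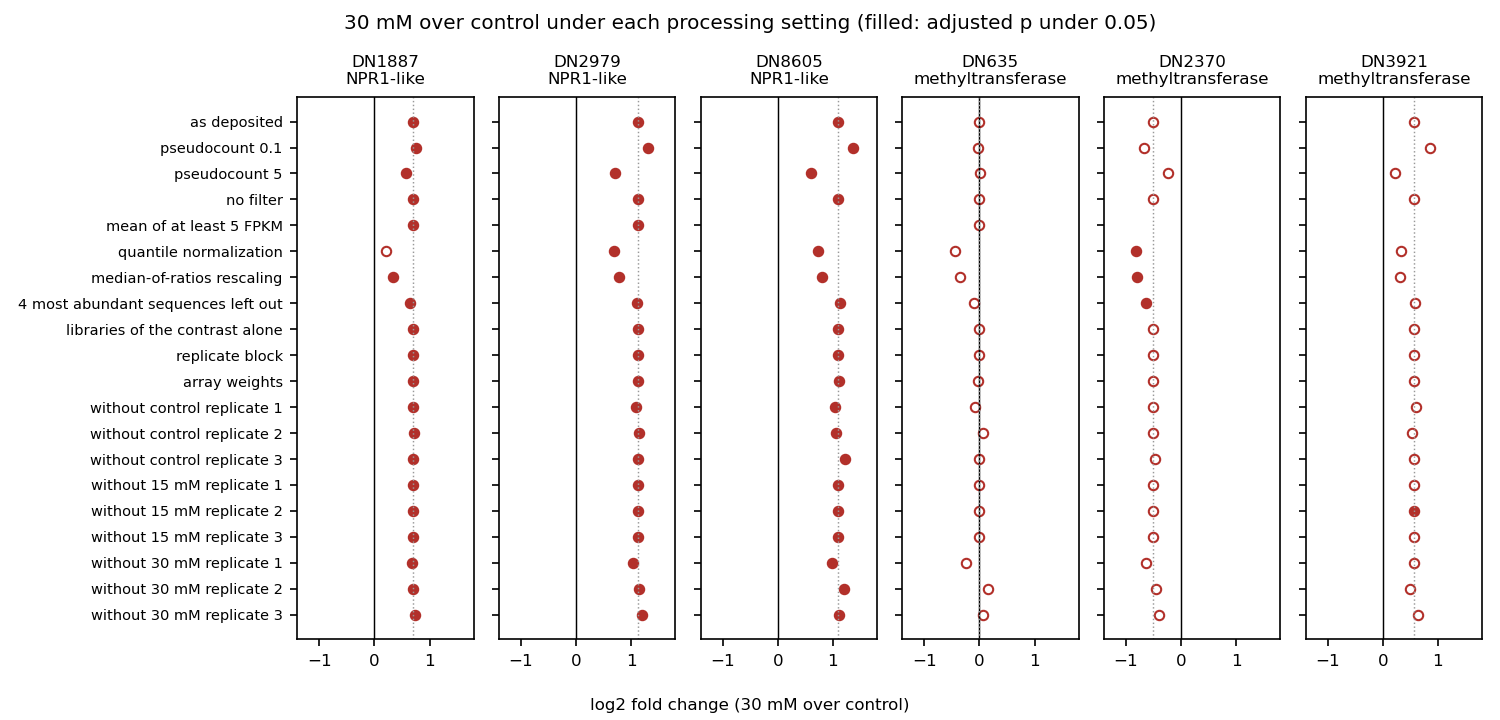
Log2 fold change at 30 mM over control (horizontal axis) under each processing setting (rows) for the 3 NPR1-like sequences and the 3 more abundant methyltransferases, with filled points for an adjusted p under 0.05 and a dotted line at the value as deposited. Quantile normalization moves DN1887 to 0.20 and DN2370 to -0.82.

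The whole-leaf samples cannot tell fewer cells of a type from less RNA per cell. Summed FPKM was 349076 to 383347 per library and relative depth, read from the steps of low values, 0.9 to 1.22 of control replicate 1. The tissue label was checked against leaf markers: chlorophyll a-b binding sequences summed to 1821 to 2906 FPKM at 30 mM and 4897 to 7559 FPKM in the controls, none of the 24 was at 0 in all libraries, and 19 fell and none rose at 30 mM. The Rubisco small subunit stood at 50.9 to 96.4 FPKM at 30 mM and 89.7 to 140.6 FPKM in the controls and was not called, nor were the 2 photosystem I subunits. Lists that mark other organs or cell types had calls in both directions, where 21.1% of annotated sequences were called higher and 2.95% lower. Of 11 sequences with the pollen allergen domain, which leaf expansins share, 3 rose. Their summed level was 47.2 to 53 FPKM at 30 mM and 20.7 to 23.3 FPKM in the controls. Of 13 laccase-type sequences that passed the filter 3 rose. Summed over all 15 laccase-type sequences, filtered ones included, the level was 38.8 to 47.3 FPKM at 30 mM and 27.3 to 33.9 FPKM in the controls. Of 19 invertase and pectin methylesterase inhibitors 6 rose and 2 fell, of 16 Casparian strip type sequences 1 rose, of 18 MADS box sequences 1 rose, of 6 Ole e 1 type sequences 1 fell, and none of 8 terpene synthases was called. No sequence of these lists was at 0 in all 9 libraries. After quantile normalization 2 pollen allergen type sequences rose and 1 fell, 2 laccase-type sequences rose and 1 fell, 2 Casparian strip type sequences fell, 1 of the invertase and pectin methylesterase inhibitors rose and 6 fell, no MADS box sequence was called, and 19 chlorophyll a-b binding sequences still fell. In that setting 1588 of 13634 annotated sequences were called higher and 1449 lower. The part of the marker shifts in the NPR1-like rise was not tested.

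At 15 mM the same 3 sequences stood higher on average, but limma called none of them against the control. In that comparison 0.0995% of all sequences were called (44 of 44203) and 0.132% of the annotated ones, and 2 of the 3 NPR1-like sequences had an unadjusted p under 0.05, as had 10.4% of all sequences and 15.1% of the annotated ones. DN2979 averaged 5.79 ± 1.28 FPKM at 15 mM and 3.52 ± 0.187 FPKM in the control (mean ± SD, n = 3 each; log2 fold change 0.57, SE 0.16, limma adjusted p = 0.276). DN8605 averaged 3.55 ± 0.362 FPKM at 15 mM and 2.29 ± 0.462 FPKM in the control (log2 fold change 0.48, SE 0.16, limma adjusted p = 0.355). In both, the 15 mM libraries lay entirely above the controls, as in 14.7% of all sequences and 23.8% of the annotated ones. DN1887 overlapped the controls, at 13.5 ± 1.7 FPKM against 11.7 ± 0.155 FPKM (log2 fold change 0.18, 95% interval -0.08 to 0.44, limma adjusted p = 0.604), and its log2 fold change was -0.05 after quantile normalization and -0.08 after median-of-ratios rescaling.

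In 6 of the 7 sequences 15 mM replicate 2 was the lowest of the 3 libraries at its dose, which also held for 74% of annotated sequences. Over the 9 fits that each left out a library, the 15 mM log2 fold change over control ran from 0.45 to 0.72 for DN2979 (limma adjusted p = 0.0923 to 0.611), from 0.42 to 0.59 for DN8605 (adjusted p = 0.22 to 0.707) and from 0.12 to 0.28 for DN1887 (adjusted p = 0.229 to 0.885). The fit without 15 mM replicate 2 gave the highest of these for DN2979 and DN1887, and 0.54 for DN8605. When limma weighted the libraries by their fit, DN2979 was called at 15 mM (log2 fold change 0.62, adjusted p = 0.0443). That fit leaned on 15 mM replicate 1, with a weight of 2.994 against 0.542 for replicate 2 and 0.654 for replicate 3. It called 793 of all 44203 sequences at 15 mM.

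Between the doses, DN1887 was called higher at 30 mM than at 15 mM, at 19.8 ± 0.807 FPKM against 13.5 ± 1.7 FPKM (mean ± SD, n = 3 each; log2 fold change 0.53, SE 0.12, limma adjusted p = 0.047). The other two NPR1-like sequences were not, with log2 fold changes of 0.62 for DN8605 (limma adjusted p = 0.0757) and 0.55 for DN2979 (adjusted p = 0.119). In this comparison 3.1% of all sequences were called, 2.41% as higher, and 5.96% of the annotated ones, 4.81% as higher. Without overlap, the 30 mM libraries lay above the 15 mM ones in 12.6% of all sequences, in 21.3% of the annotated ones and in all 3 NPR1-like sequences. The DN1887 call was near the threshold: it was lost in each fit that left out a library (limma adjusted p = 0.0618 to 0.129) and after quantile normalization (log2 fold change 0.25, adjusted p = 0.15). With the 4 most abundant sequences of the series left out and the rest rescaled, all 3 were called (adjusted p = 0.00438 to 0.025).

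The shape over dose was compared by setting the 15 mM mean against the midpoint of the control and 30 mM means on the log2 scale. No member was called in this contrast or had an unadjusted p under 0.05, where 0.0294% and 7.52% of all sequences did, and 0% and 7.16% of the annotated ones. In the values as deposited, the 15 mM mean of DN1887 had moved 25.6% of the way from the control to the 30 mM mean, that of DN8605 43.3% and that of DN2979 50.9%. These percentages were not recomputed under other scalings. For DN1887 the 15 mM log2 fold change over control was negative after quantile normalization and median-of-ratios rescaling, as given above. The differences from the midpoint were -0.17 for DN1887 (95% interval -0.40 to 0.05), -0.07 for DN8605 (-0.38 to 0.24) and 0.01 for DN2979 (-0.31 to 0.33).

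**Figure D3:**
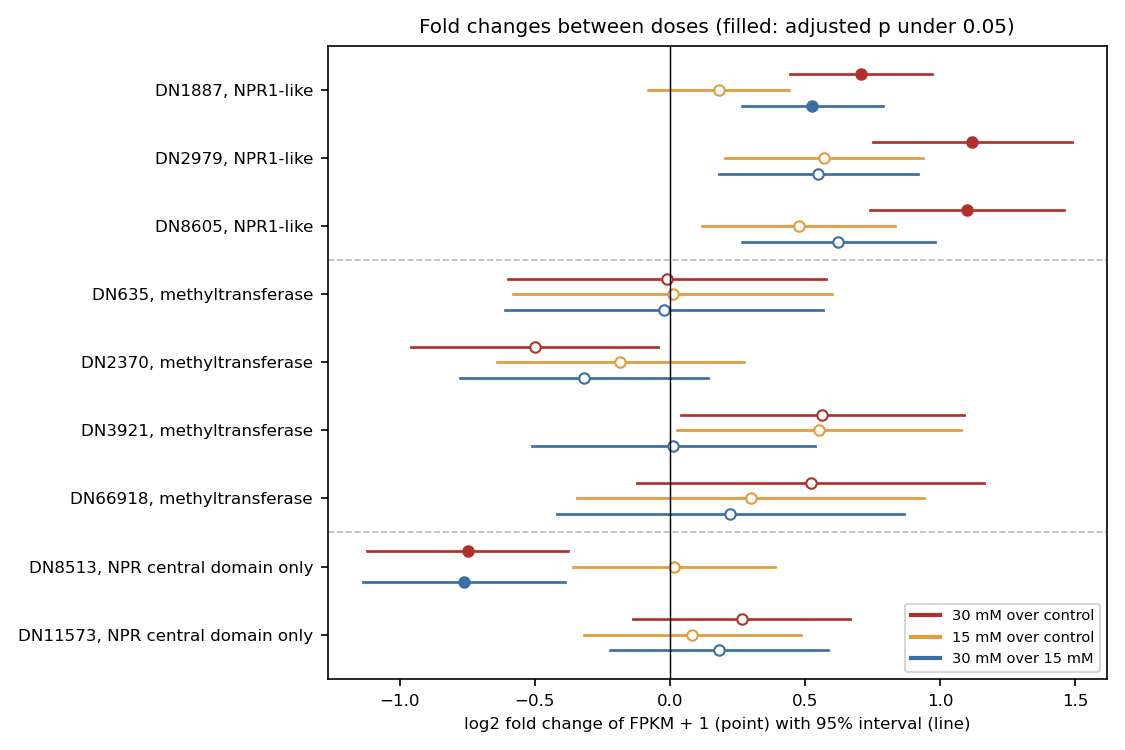
Log2 fold changes of FPKM + 1 (horizontal axis) with 95% intervals for the 7 sequences and for 2 sequences with the NPR central domain but no NPR1-like C terminal, in 3 comparisons, filled where the adjusted p was under 0.05. The 3 NPR1-like sequences lie right of 0 at 30 mM over control, between 0.71 and 1.12, while DN8513 lies at -0.75.

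Among themselves, the NPR1-like sequences kept the same order of level at each dose, with DN1887 first, DN2979 next and DN8605 last. Their summed level was 16.99, 17.63 and 18.03 FPKM in the control libraries, 24.26, 19.14 and 25.17 FPKM at 15 mM and 37.81, 33.74 and 32.66 FPKM at 30 mM. DN1887 held 66.9% of that sum in the control, 59.1% at 15 mM and 57.1% at 30 mM, and DN8605 held 13%, 15.6% and 17.4%. Pearson correlations of log2(FPKM + 1) over the 9 libraries were 0.925 to 0.954 between pairs of the 3 sequences, which share the libraries and the doses. The files hold no nucleotide or protein sequence, so how alike the 3 are was not analysed here, and reads of near-identical copies could have been split among them.

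A further 2 sequences carry the NPR central domain (PF11900) and a BTB domain without the NPR1-like C terminal, a domain order that in Arabidopsis is known from the BLADE-ON-PETIOLE proteins, which act in organ boundaries. They are not members and were looked up after the members' values had been seen. T15_3_TRINITY_DN8513_c0_g1 (DN8513) had 2.29, 3.03 and 3.33 FPKM in the controls, 3.16, 2.35 and 3.24 FPKM at 15 mM and 1.56, 1.27 and 1.08 FPKM at 30 mM. It was lower in every 30 mM library than in any other, at 1.3 ± 0.242 FPKM against 2.88 ± 0.535 FPKM in the control (mean ± SD, n = 3 each; log2 fold change -0.75, SE 0.16, limma adjusted p = 0.021) and against 2.92 ± 0.492 FPKM at 15 mM (log2 fold change -0.76, limma adjusted p = 0.0441). Against the control, 6.04% of all sequences and 7.92% of the annotated ones were lower at 30 mM without overlap. Against 15 mM these shares were 6.9% and 7.85%, and 0.69% and 1.15% were called lower. The DN8513 call against the control did not hold when replicate 2 or 3 of the control or of 30 mM was left out (limma adjusted p = 0.0523 to 0.0811). Its call against 15 mM was not followed through the alternative fits. T30_2_TRINITY_DN11573_c0_g2 stayed under 1.2 FPKM in every library and was not called (log2 fold change 0.27 at 30 mM, 95% interval -0.14 to 0.67).

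The methyltransferase sequences differed in direction from each other, and none passed the test at either dose. At 30 mM against the control limma called 0 of 4, with 2 at an unadjusted p under 0.05 (26.1% of all sequences and 45.9% of the annotated ones), and at 15 mM 0 of 4, with 1. The most abundant was T15_3_TRINITY_DN635_c0_g1 (DN635). Its FPKM was 4.82, 6.1 and 5.5 in the controls, 5.71, 3.75 and 7.6 at 15 mM and 7.92, 4.07 and 4.8 at 30 mM. All 3 doses overlapped, and the spread within each PHBA dose was wider than any difference between doses. The mean was 5.6 ± 2.04 FPKM at 30 mM and 5.47 ± 0.64 FPKM in the control (mean ± SD, n = 3 each; log2 fold change -0.01, 95% interval -0.60 to 0.58, limma adjusted p = 0.987).

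T15_3_TRINITY_DN2370_c0_g2 (DN2370) was the methyltransferase that stood lower at 30 mM. It had 3.44, 3.53 and 3.68 FPKM in the controls, 2.95, 2.14 and 4.18 FPKM at 15 mM and 2.91, 2.05 and 1.78 FPKM at 30 mM. The 30 mM libraries lay below the controls without overlap, as in 6.04% of all sequences and 7.92% of the annotated ones, while 15 mM spanned both. The 30 mM mean was 2.25 ± 0.59 FPKM and the control mean 3.55 ± 0.121 FPKM (mean ± SD, n = 3 each; log2 fold change -0.50, SE 0.20, limma adjusted p = 0.154). Under the 3 rescalings it was called lower: the log2 fold change was -0.82 after quantile normalization (limma adjusted p = 0.00616), -0.80 after median-of-ratios rescaling (adjusted p = 0.00517) and -0.64 once the 4 most abundant sequences were dropped (adjusted p = 0.0243).

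T30_1_TRINITY_DN3921_c0_g1 (DN3921) lay higher at both doses. It had 1.3, 1.09 and 1.24 FPKM in the controls, 2.43, 1.24 and 3.41 FPKM at 15 mM and 2.29, 2.61 and 1.93 FPKM at 30 mM. The 30 mM libraries were all above the controls, as in 25.9% of all sequences tested and 47.3% of the annotated ones. The 15 mM replicate 2 lay within the range of the controls. Means were 2.28 ± 0.34 FPKM at 30 mM and 1.21 ± 0.108 FPKM in the control (mean ± SD, n = 3 each; log2 fold change 0.56, SE 0.23, limma adjusted p = 0.162), and 2.36 ± 1.09 FPKM at 15 mM against the same control (log2 fold change 0.55, limma adjusted p = 0.461). The 30 mM difference was called in the fit without 15 mM replicate 2 (limma adjusted p = 0.0473) and in no other alternative tried.

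The fourth, T30_1_TRINITY_DN66918_c0_g1 (DN66918), was near the filter, with 0.11, 0.19 and 0.03 FPKM in the controls, 0.57, 0.52 and 0.06 FPKM at 15 mM and 1.35, 0.24 and 0.38 FPKM at 30 mM. Only 3 libraries reached 0.5 FPKM, all of them treated, so it passed through the groups in which it was high. Its log2 fold change at 30 mM was 0.52 (95% interval -0.12 to 1.16, limma adjusted p = 0.292). Just outside the filter, T15_1_TRINITY_DN61153_c0_g1 reached 0.5 FPKM in 2 libraries and was at 0 to 0.64 FPKM throughout. The other sequence left out, T15_1_TRINITY_DN33731_c0_g1, reached it in 1 library, was at 0 in all 3 controls and had at most 0.54 FPKM.

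The summed level of the 4 methyltransferases was 9.67, 10.91 and 10.45 FPKM in the control libraries, 11.66, 7.65 and 15.25 FPKM at 15 mM and 14.47, 8.97 and 8.89 FPKM at 30 mM. The 3 doses overlapped. DN635 supplied 52.9% of the sum in the control, 49.4% at 15 mM and 51.9% at 30 mM. DN2370 held 34.3% in the control, 26.8% at 15 mM and 20.9% at 30 mM, and DN3921 held 11.7%, 20.5% and 21.1%. DN66918, which passed the filter only through treated libraries, held 1.06%, 3.33% and 6.09%. Correlations with the NPR1-like sequences over the 9 libraries were -0.551 to -0.432 for DN2370, 0.183 to 0.285 for DN635 and 0.624 to 0.793 for DN3921.

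The annotated sequences most like 4 of the members over the 9 libraries were searched among 10753 with a mean of at least 1 FPKM. The 4 were, in each family, the one with the smallest p at 30 mM against the control (DN8605 and DN2370) and the one with the highest mean (DN1887 and DN635), and DN2979, DN3921 and DN66918 were not searched. Closest to DN8605 were a C2-domain sequence, T15_3_TRINITY_DN6849_c0_g2 (Pearson r = 0.992), a protein kinase with EF-hands, T30_3_TRINITY_DN6216_c0_g4 (r = 0.992), and a citrate synthase, T15_2_TRINITY_DN11154_c0_g1 (r = 0.991). The kinase, of a domain make-up typical of calcium-dependent protein kinases, averaged 5.48 FPKM in the control, 7.87 FPKM at 15 mM and 11.4 FPKM at 30 mM. Closest to DN1887 were a sequence of the MFS transporter superfamily, TCK_2_TRINITY_DN2628_c0_g3 (r = 0.996), a mitochondrial carrier, TCK_3_TRINITY_DN6184_c0_g1 (r = 0.994), and a ubiquitin-conjugating enzyme, T30_1_TRINITY_DN13500_c0_g1 (r = 0.991).

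For the methyltransferases, DN2370 was most like an FtsH-type protease, TCK_3_TRINITY_DN716_c0_g4 (r = 0.975), of a family that includes chloroplast proteases, an ankyrin-repeat sequence, TCK_2_TRINITY_DN2978_c0_g1 (r = 0.975), and a Bet v I type sequence, TCK_2_TRINITY_DN1178_c0_g2 (r = 0.972). DN635 was most like a fatty acid desaturase, T30_2_TRINITY_DN463_c0_g1 (r = 0.967), a squalene synthase-like sequence, T30_1_TRINITY_DN11315_c0_g1 (r = 0.962), and an aldehyde dehydrogenase, T15_3_TRINITY_DN2807_c0_g2 (r = 0.959). Each is the top of 10753 comparisons over 9 libraries that share their doses, and is given as a description.

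Other steps of salicylate synthesis and signalling at 30 mM against the control were read from lists defined by Pfam domain, without a test of the lists. Each count stands beside the 21.1% of annotated sequences called higher and the 2.95% called lower in that comparison. Upstream of the hormone, phenylalanine ammonia-lyase opens the phenylpropanoid route and isochorismate synthase, one of the chorismate-binding enzymes, the other route. Of 4 sequences with the ammonia-lyase domain 2 rose and none fell, and their median log2 fold change was 1.06. That count was 0 without control replicate 3 and 1 without replicate 1 of the control or of 30 mM. The abundant one, T15_1_TRINITY_DN2607_c0_g1, had 48.51, 60.54 and 42.64 FPKM in the controls, 82.29, 50.64 and 66.55 FPKM at 15 mM and 107.91, 87.73 and 129.4 FPKM at 30 mM. At 30 mM it averaged 108.3 ± 20.8 FPKM, against 50.6 ± 9.12 FPKM in the control (SD, n = 3 each; limma adjusted p = 0.0155), but it was no longer called after median-of-ratios rescaling (adjusted p = 0.116) or when control replicate 1, control replicate 3 or 30 mM replicate 1 was left out (adjusted p = 0.0514 to 0.0623). None of the 3 chorismate-binding sequences was called (median 0.16), none at an unadjusted p under 0.05. No annotated sequence matched the chorismate mutase domain.

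In Arabidopsis, CBP60-family factors such as SARD1 and CBP60g switch on salicylate synthesis, and EDS1 with PAD4 forms an immune hub upstream of it. Of 6 CBP60-type sequences 5 rose and none fell (median 1.66), where 21.1% of annotated sequences were called higher. T15_2_TRINITY_DN4732_c0_g1 had 2.15, 2.7 and 4.05 FPKM in the controls, 6.41, 3.61 and 5.68 FPKM at 15 mM and 14.43, 18.56 and 19.35 FPKM at 30 mM (30 mM over control, log2 fold change 2.24, SE 0.23, limma adjusted p = 0.00075). The more abundant T15_1_TRINITY_DN905_c0_g2 averaged 19.7 ± 2.52 FPKM at 30 mM and 10.6 ± 0.314 FPKM in the control (SD, n = 3 each; limma adjusted p = 0.00452). Of the 3 sequences with the EDS1-specific domain 2 rose (median 1.02). TCK_3_TRINITY_DN22949_c0_g1, of this family, averaged 10.5 ± 3.13 FPKM at 30 mM and 1.59 ± 0.155 FPKM in the control (log2 fold change 2.11, SE 0.18, limma adjusted p = 3.68e-04). The counts for both lists were the same after quantile normalization and median-of-ratios rescaling.

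NPR1's partners and the enzymes of hormone conjugation are described next, beside the same 21.1% of annotated sequences called higher and 2.95% called lower. Of 7 TGA-type sequences, the factors that NPR1 works with in Arabidopsis, 1 rose (median 0.28): TCK_1_TRINITY_DN672_c0_g2, named because it was the single call, stood at 3.79 ± 0.304 FPKM at 30 mM and 2.33 ± 0.398 FPKM in the control (SD, n = 3 each; limma adjusted p = 0.0316). It was no longer called under quantile normalization (adjusted p = 0.397) or median-of-ratios rescaling (adjusted p = 0.308), nor when control replicate 1 or 2, 15 mM replicate 1 or any 30 mM replicate was left out (adjusted p = 0.0564 to 0.128). Of 25 other BTB proteins 3 rose and 1 fell (median 0.18), the one that fell being DN8513, and after quantile normalization 1 rose and 3 fell. With 1 library left out the BTB list had 0 to 4 calls: 0 without control replicate 2, 1 without control replicate 1 and 2 without control replicate 3, 30 mM replicate 1 or 30 mM replicate 2. Of 12 GH3 sequences, acyl acid amido synthetases that conjugate amino acids to hormones such as jasmonic and indole-3-acetic acid, 3 rose and 3 fell (median -0.12), and 1 rose and 3 fell when control replicate 1, control replicate 2 or 30 mM replicate 1 was left out. The GH3 sequence T30_3_TRINITY_DN17041_c0_g1 averaged 6.98 ± 2.04 FPKM at 30 mM and 25.9 ± 2.05 FPKM in the control (mean ± SD, n = 3 each; log2 fold change -1.78, SE 0.20, limma adjusted p = 0.00109). Of 40 WRKY factors 27 rose and none fell (median 1.27), with 21 higher and 1 lower after quantile normalization.

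**Figure D4:**
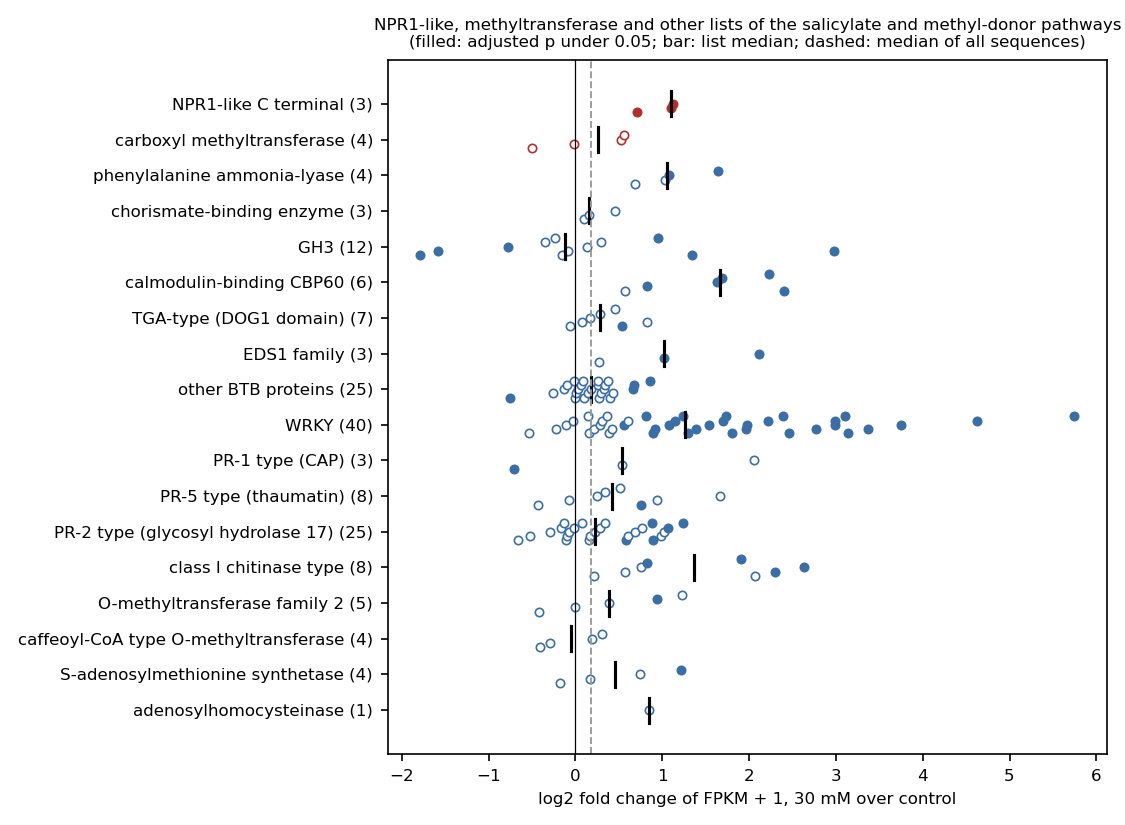
Log2 fold change at 30 mM over control (horizontal axis) of every tested sequence in the NPR1-like and methyltransferase families (red) and in the other lists (blue), with the number of sequences in brackets, filled points for an adjusted p under 0.05, a bar at each list's median and a dashed line at the median of all sequences (0.18). The NPR1-like median is 1.10. The carboxyl methyltransferase median of 0.25 counts DN66918 (0.52), which passed the filter only through treated libraries. The other methyltransferases are at -0.50 (DN2370), -0.01 (DN635) and 0.56 (DN3921).

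The methyl donor and the other methyltransferases were described in the same way, beside the same shares of annotated sequences (21.1% higher and 2.95% lower). S-adenosylmethionine synthetase makes the donor, and adenosylhomocysteinase removes the product left after methyl transfer. Of 4 synthetase sequences 1 rose and none fell (median 0.46), and under either quantile or median-of-ratios scaling 1 rose and 1 fell. T30_3_TRINITY_DN289_c0_g1, the synthetase that rose, averaged 27 ± 6.54 FPKM at 30 mM and 10.9 ± 1.13 FPKM in the control (SD, n = 3 each; limma adjusted p = 0.0137), which leaving out replicate 1 of the control (adjusted p = 0.0584) or of 30 mM (adjusted p = 0.0502) undid. The single adenosylhomocysteinase, T15_2_TRINITY_DN481_c0_g1, stood at 50.3 ± 18.8 FPKM at 30 mM and 26.3 ± 1.95 FPKM in the control and missed the threshold (limma adjusted p = 0.0589). Of 5 sequences of O-methyltransferase family 2, which methylate phenolic hydroxyl groups, 1 rose (median 0.38), and with either of those rescalings 1 fell and none rose. The one that rose, T30_1_TRINITY_DN13983_c0_g1, averaged 20.4 ± 5.9 FPKM at 30 mM and 9.98 ± 2.24 FPKM in the control (limma adjusted p = 0.0472), a call lost in 7 of the 9 fits that left out a library (adjusted p = 0.0557 to 0.152). None of the 4 caffeoyl-CoA type sequences was called (median -0.05).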

How the data were processed

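Leaf RNA was sequenced in 9 libraries, 3 at each PHBA dose. The authors deposited FPKM values for 82125 sequences, whose names carry the Trinity assembler and 1 library, and a domain annotation for 14831 of them. The submitters' processing notes list RSEM, DESeq, FastQC 0.11.5 and Trimmomatic 0.36 but not what each was used for. Mapper, genome build and the merging of assemblies: not given in the sources used here. Depth in counts is unknown, so no counting interval is given. All value columns were used.

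The 44203 sequences that reached 0.5 FPKM in 3 or more libraries were kept. With limma 3.58.1 (R 4.3.3), log2(FPKM + 1) was fitted for the 3 doses in 1 model with an intensity trend (6 residual degrees of freedom) and p-values were Benjamini-Hochberg adjusted over all kept sequences, with calls at an adjusted p under 0.05. The pseudocount of 1 makes fold changes of low sequences understate the change of FPKM. The 3 dose comparisons share libraries: each dose enters 2 of them, so they are not independent.

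The members and the domain lists were chosen with earlier results of these data known. Every member is named. From a list, at most 4 sequences called at 30 mM against the control with a mean of at least 5 FPKM and the largest log2 fold changes could be named, and a single call or single member outside that rule was named after its values were seen. Lists for chorismate mutase, barwin and photosystem II 10 kDa matched no annotated sequence. None of the sequence names matched the RefSeq gene table. Alternatives were pseudocounts of 0.1 and 5, no filter, a mean of at least 5 FPKM, quantile normalization, median-of-ratios rescaling, leaving out the 4 most abundant sequences, the libraries of the contrast alone, a replicate block, array weights and each library left out in turn. Versions used were Python 3.11.15, pandas 2.3.3 and matplotlib 3.10.9.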

Additional observations from a re-analysis of the deposited data

How the results depend on the processing

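The count of 3 of 3 NPR1-like sequences higher at 30 mM against the control dropped to 2 after quantile normalization and was 3 in each fit that left out a library. At a mean of at least 5 FPKM only DN1887, DN2979 and DN635 of the 7 sequences were tested. Of the 4 methyltransferases 1 was called at 30 mM under each of the 3 rescalings (quantile 1, median-of-ratios 1, dropping the 4 most abundant sequences 1), and 0 to 1 with a library left out. The NPR1-like count at 15 mM was 1 with array weights, against 0. Between 30 mM and 15 mM it was 1, but 0 with a pseudocount of 5, no filter, quantile normalization, the contrast's libraries alone or any 1 library left out (0 in all 9 fits), 2 under median-of-ratios rescaling and 3 once the 4 most abundant sequences were dropped.

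Counts over all sequences came from sets of different size: 44203 tested in the main fit, 78675 without a filter and 4548 above the 5 FPKM minimum. These totals hold for each comparison below, so the raw counts of those settings do not compare directly. Calls at 30 mM against the control numbered 5200 of 44203. Dropping the filter gave 3401 of 78675. The 5 FPKM minimum gave 2380 of 4548, a smaller count but a larger share of its set. With a library left out, calls numbered 2350 to 5773 of 44203. They were 2350, 2473 and 3159 when control replicate 1, 2 or 3 was dropped, and 2872 when 30 mM replicate 1 was. At 15 mM calls numbered 44 of 44203, with 102 and 5 at pseudocounts of 0.1 and 5. Dropping the filter gave 4 of 78675, and the 5 FPKM minimum gave 213 of 4548. Calls numbered 76 under quantile and 71 under median-of-ratios scaling, and 126 without the 4 most abundant sequences. They numbered 14 with the contrast's libraries alone, 793 with array weights and 5 to 135 with a library left out (135 without 15 mM replicate 2). Between the doses they numbered 1371, with 746 without a filter, 2236 under quantile and 2135 under median-of-ratios scaling, 2999 without the 4 most abundant sequences, 403 with the contrast's libraries alone and 518 to 1572 with a library left out (518 without 15 mM replicate 1). Against the midpoint they numbered 13, with 3 at a pseudocount of 0.1, 5 without a filter, 0 at a mean of at least 5 FPKM, 57 with array weights and 5 to 31 with a library left out. That contrast uses all 9 libraries, so no fit on fewer was run. The cause of these shifts was not tested.

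Calls at 30 mM against the control were 4425 higher and 775 lower, but 2486 and 2410 under quantile and 2833 and 2306 under median-of-ratios scaling. Between the doses they were 1066 higher and 305 lower, but 1107 and 1129 under quantile and 1254 and 881 under median-of-ratios scaling.

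Replicate numbers did not pair the libraries: deviations of same-numbered libraries correlated at -0.013 to 0.027, and not every library correlated best with its own number. With a replicate block the NPR1-like count was 3 at 30 mM against the control and 0 between the doses, the DN8513 call at 30 mM was lost (limma adjusted p = 0.0553), and calls over all sequences numbered 4 at 15 mM, 851 between the doses and 3 against the midpoint. The FPKM hold no counts, so depth limits the low sequences (DN66918 and those outside the filter) by an unknown amount.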

Other observations

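Pathogenesis-related families, only some of which hold genes known to act downstream of NPR1 in Arabidopsis, were counted at 30 mM PHBA against the control. In that comparison 21.1% of annotated sequences were called higher and 2.95% lower. Which route the sequences counted here follow was not tested. Of 8 class I chitinase type sequences 4 rose and none fell (median log2 fold change 1.37), of 25 glucanase (PR-2) type sequences 5 rose and none fell (median 0.23), and of 8 thaumatin (PR-5) type sequences 1 rose (median 0.43). After quantile normalization 2 chitinases rose, and of the PR-2 type 1 rose and 2 fell. With 1 library left out, the PR-2 type had 1 to 7 calls (1 without control replicate 2, 2 without control replicate 1, control replicate 3 or 30 mM replicate 1, 3 without 15 mM replicate 1). The chitinases had 2 to 5 calls, with 2 when any 1 control library was left out. The PR-5 type had 0 to 2 calls, 2 without 30 mM replicate 3 and 0 without any 1 control library, 15 mM replicate 1, 30 mM replicate 1 or 30 mM replicate 2. Of 3 PR-1 type sequences none rose and 1 fell, while the median of the 3 was 0.54, or 0.03 after quantile normalization. The one that fell, TCK_3_TRINITY_DN57140_c0_g1, named as the single call, had 2.17, 2.3 and 1.94 FPKM in the controls, 1.28, 1.29 and 1.02 FPKM at 15 mM and 1.19, 0.72 and 0.87 FPKM at 30 mM (log2 fold change -0.71, SE 0.15, limma adjusted p = 0.0164). Leaving out control replicate 1 (limma adjusted p = 0.0675) or control replicate 2 (adjusted p = 0.0715) undid that call.

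The chitinase-type sequence TCK_3_TRINITY_DN620_c0_g1 had 91.98, 29.8 and 15.49 FPKM at 30 mM and 5.4, 6.02 and 7.8 FPKM in the controls (log2 fold change 2.30, SE 0.53, limma adjusted p = 0.0243). Its 30 mM libraries lay above the controls without overlap, as in 25.9% of all sequences tested and 47.3% of the annotated ones. The call for this chitinase was lost without any 1 control library (limma adjusted p = 0.0554 to 0.0855) and after quantile normalization (adjusted p = 0.0628).

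In 6 of the 7 NPR1-like and methyltransferase sequences 30 mM replicate 1 was the highest of the 3 libraries at its dose, as in 58.4% of annotated sequences. The part of this library in the results was not tested beyond leaving it out.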
